A study of Mus musculus with 4 samples.

Results

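The release of neurotransmitter from a synaptic vesicle is driven by a small set of proteins, and 8 genes that encode them were followed here: Snap25, Syt1, Vamp1, Vamp2, Stx1a, Syp, Cplx1 and Cplx2. They were taken by name from a table of transcript isoforms in cells of the mouse retina. Of the 8 genes, 7 had at least 1 isoform in the table. Cplx2 had 0 and has no level below. The 7 genes held 21 of the 44325 isoforms of the table, which covers 13452 genes with an Ensembl identifier.

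Male C57BL6/J mice, wild-type in genotype, gave retinas that were dissociated with papain into single cells, and 4 libraries of 10x Genomics cDNA were read at full length on a nanopore instrument. Cells of 2 libraries had no enrichment, and 1 of these came from mice at postnatal day 40. A CD73 enrichment was labelled for a library at 8 weeks, where the protocol describes removal of CD73-positive cells, and a CD90.2 enrichment for a library at 4 months. The values come as counts in 6 columns, 1 for each of the photoreceptor classes (rods and cones), the interneuron classes (bipolar and amacrine cells), the output neurons (retinal ganglion cells) and the Müller glia, with no mark of the library a count came from. Each class is therefore 1 pooled sample without replicates. Age and enrichment cannot be told apart from cell class, and every difference below is a description of size with no test. Column totals ran from 3509890 counts in ganglion cells to 55437340 in rods. Levels are counts scaled to a column total of 1000000 (CPM), and intervals are exact 95% intervals that cover counting error only.

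The class names were compared with marker genes: all 36 markers of the 6 classes had their highest level in the column of that class. Amacrine markers summed to 428 CPM in the amacrine column, beside 382 CPM of ganglion markers there. Horizontal cells have no column. Of 5 markers of them 3 were found, which summed to 72.9 CPM in the amacrine column and 33.9 or less in the others. The part of horizontal cell RNA in the amacrine column was not tested. Rod markers, at 62939 CPM in rods, reached 43.4% of that level in cones and 10.1% in Müller glia, against 2.65% in bipolar and 0.596% in amacrine cells. In ganglion cells they had 0 counts. Whether the rod markers in the cone column came from rods or from the cones themselves was not tested. The Müller glia column also held 1609 CPM of microglia markers and 142 CPM of astrocyte markers. How much of a low neuronal level in that column came from RNA of other cells was not tested.

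A synaptic vesicle fuses with the plasma membrane when a SNARE protein on the vesicle, VAMP (synaptobrevin), zips into a helical bundle with the plasma membrane SNAREs syntaxin 1 and SNAP-25. Synaptotagmin 1 on the vesicle senses calcium and triggers the fusion, and complexins bind the assembled bundle and control when it acts. In the retina, amacrine cells make conventional synapses, whereas photoreceptors and bipolar cells release from ribbon synapses, which are known to use syntaxin 3 and complexins 3 and 4. Ganglion cells make their conventional output synapses in the brain, through axons that leave the retina.

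Snap25 (ENSMUSG00000027273.13, chr2:136713453-136782428 on the plus strand of GRCm38) encodes SNAP-25, which gives 2 of the helices of the bundle. Its level was 6614 CPM in ganglion cells (6529 to 6700), 3114 in amacrine cells (3098 to 3130), 595 in bipolar cells (586 to 604), 531 in cones (514 to 548), 505 in rods (499 to 511) and 35.9 in Müller glia (31.3 to 40.9). No neighbours in this order had overlapping intervals, but bipolar cells, cones and rods lay close together. With median-of-ratios scaling the order of bipolar cells and cones turned, at 586 and 595. Ganglion cells were 13.1-fold and amacrine cells 6.16-fold above rods.

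Both Snap25 isoforms in the table were annotated transcripts, and they differ in which copy of exon 5 lies between exons 4 and 6. Exon 5a (chr2:136769743-136769860, in Snap25-202) and exon 5b (chr2:136770057-136770174, in Snap25-201) are 118 nt each and stand 196 nt apart. The pair is shown because the choice between them is the isoform difference of this gene. Both are given on the plus strand from the GENCODE M21 transcripts, with the 31 bases that differ in capitals.
exon 5a: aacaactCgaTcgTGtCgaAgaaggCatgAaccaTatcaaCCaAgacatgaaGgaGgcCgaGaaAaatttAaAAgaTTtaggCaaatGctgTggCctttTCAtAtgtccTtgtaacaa
exon 5b: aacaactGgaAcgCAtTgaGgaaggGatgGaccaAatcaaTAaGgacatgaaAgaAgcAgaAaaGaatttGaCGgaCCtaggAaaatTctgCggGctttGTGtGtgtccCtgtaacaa

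The exons were 73.7% identical. Of the 206 codons of the coding sequence, 26 differed between the forms and 9 of these changed the residue. Each form had 4 cysteine codons, of which 3 were at the same place. As background, the cysteines of SNAP-25 carry the palmitate that holds the protein on the membrane, and the forms are known as SNAP-25a and SNAP-25b, with SNAP-25b the main form of the adult brain.

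Every Snap25 count fell on a form with exactly 1 of the exons. The 5a form held 43912 of 150239 Snap25 counts in amacrine cells, a share of 29.2% (29.0 to 29.5%). Its share was 13.5% in bipolar cells (2326 of 17267 counts, 13.0 to 14.0%) and 7.11% in ganglion cells (1650 of 23214, 6.78 to 7.45%). In rods it was 3.21% (898 of 28013, 3.0 to 3.42%), in cones 2.58% (100 of 3878, 2.10 to 3.13%) and in Müller glia 7.73% (17 of 220, 4.57 to 12.1%). The 5a share was thus highest in amacrine cells and lowest in photoreceptors, and the interval of amacrine cells overlapped with no other. The 5b form was the more abundant in all 6 classes.

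Amacrine cells lay 26.0 percentage points above rods in the 5a share (25.7 to 26.3), 22.1 points above ganglion cells (21.7 to 22.5) and 15.8 points above bipolar cells (15.2 to 16.3). Bipolar cells lay 10.3 points above rods (9.72 to 10.8). Cones lay slightly below rods (-0.627 points, -1.15 to -0.0417), and the difference of Müller glia from ganglion cells had an interval that held 0 (0.619 points, -2.56 to 4.99).

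The background was taken over genes with 2 or more isoforms. With 1000 counts or more in both amacrine cells and rods, 19.2% of them had a share difference of at least 20 points. With as many in both amacrine and ganglion cells, 4.97% did. At the same depth, 27.3% of such genes differed by at least 10 points between amacrine and bipolar cells. These cut-offs were set after the Snap25 shares were seen. Of 7940 genes with 2 or more modelled isoforms, 335 had models that exchange 1 internal exon for another, and in 24 of them the exons were of equal length. Snap25 was 1 of 10 of these 24 genes with at least 100 counts of the pair in amacrine cells and in rods, and 1 of 5 among the 10 in which the share of the upstream exon differed by 20 points or more.

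On the scale of levels, the 5a form stood at 910 CPM in amacrine cells, 470 in ganglion cells, 80.2 in bipolar cells, 16.2 in rods, 13.7 in cones and 2.77 in Müller glia. The 5b form stood at 2204, 6144, 515, 489, 517 and 33.1 CPM in the same classes. Ganglion cells therefore held more of the 5b form than amacrine cells (amacrine over ganglion 0.359-fold) and less of the 5a form (1.94-fold). Between amacrine cells and rods the 5a form differed 56.2-fold and the 5b form 4.51-fold, and between bipolar cells and rods the folds were 4.95 and 1.05.

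The amacrine column held 89.8% of all 5a counts and 61.1% of all 5b counts, against 32.2% of the counts of the whole table. The 5a level of ganglion cells was 51.7% of that in amacrine cells, and amacrine markers in the ganglion column were at 4.60% of their level in the amacrine column. In bipolar cells the 5a level was 8.81% of the amacrine level, and amacrine markers there were at 0.847%. The part of amacrine RNA in the 5a counts of ganglion and bipolar cells was not tested. A predicted gene, Gm14053, overlaps Snap25 on the opposite strand, and whether the counting used strand is not given in the sources used here.

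**Figure D1:**
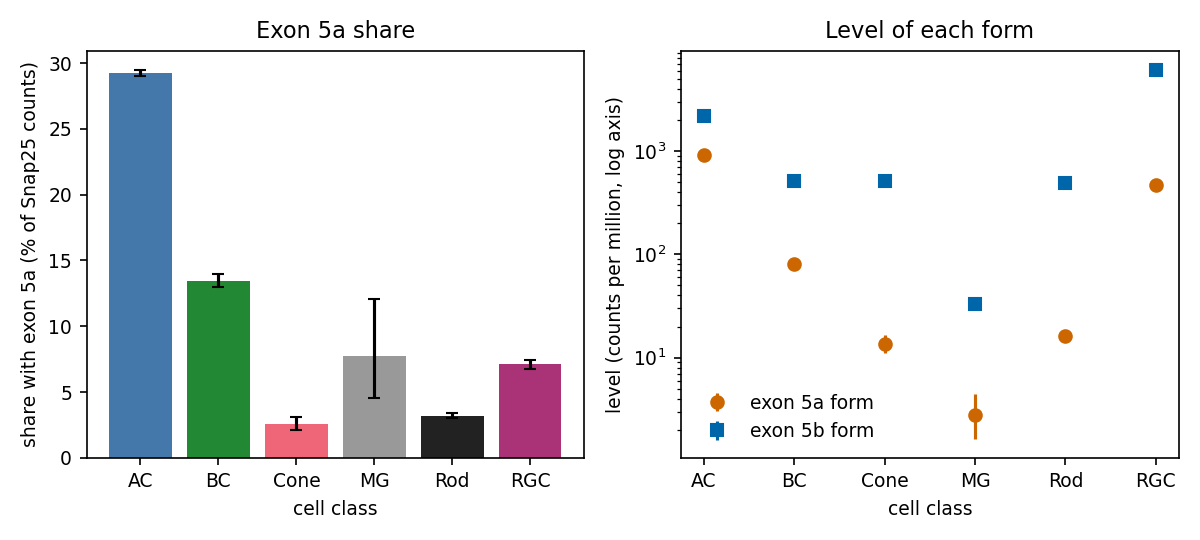
Snap25 exon 5a and 5b in the 6 cell classes, where AC stands for amacrine cells, BC for bipolar cells, MG for Müller glia and RGC for ganglion cells: the share of Snap25 counts with exon 5a in percent, with exact 95% intervals, and the level of each form in CPM on a log axis. The share is 29.2% in amacrine cells, 13.5% in bipolar cells and 2.58 to 7.73% in the other 4 classes.

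Stx1a (ENSMUSG00000007207.10, chr5:135023482-135051100, plus strand) encodes syntaxin 1A, the plasma membrane SNARE that spans the membrane. Its level was 66.1 CPM in ganglion cells (57.9 to 75.2), 25.5 in amacrine cells (24.1 to 27), 2.61 in Müller glia (1.49 to 4.24), 2.59 in bipolar cells (2.03 to 3.24), 0.794 in rods (0.577 to 1.07) and 0.274 in cones (0.0331 to 0.989). Ganglion cells stood 83.3-fold and amacrine cells 32.2-fold above rods. The intervals of Müller glia and bipolar cells overlapped, as did those of rods and cones, where only 44 and 2 counts were found.

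Stx1a-201, the full-length form with 288 codons, held 96.8% of Stx1a counts in amacrine cells (1193 of 1232), 94.0% in ganglion cells (218 of 232), 93.2% in rods (41 of 44) and 36.0% in bipolar cells (27 of 75). In bipolar cells Stx1a-204 was the more abundant form instead, with 47 of 75 counts, a share of 62.7% (50.7 to 73.6%). In Müller glia it held 14 of 16 counts. The share of Stx1a-204 was 0.812% in amacrine cells (10 counts) and 6.82% in rods (3 counts). In ganglion cells it had 0 of 232 counts (0 to 1.58%).

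Stx1a-204 uses another 3′ splice site before exon 9 of 10. This adds 83 bases, which is not a multiple of 3, to the start of that exon. The reading frame then ends after 256 codons, with 101 bases from the stop codon to the end of the exon, and the reference gives the transcript the class of nonsense-mediated decay, the pathway that removes messages with an early stop. The added bases (chr5:135048911-135049003 with the bases up to the stop codon, plus strand, GENCODE M21) are printed in capitals, and the lower-case letters run to the stop codon, tga.
Stx1a-204: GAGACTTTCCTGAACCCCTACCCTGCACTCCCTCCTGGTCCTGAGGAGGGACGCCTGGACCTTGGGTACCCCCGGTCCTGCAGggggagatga

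An isoform switch was called where the most abundant isoform differed between a pair of classes, 1 of the pair changed its share by 50 points or more, and the gene had at least 20 counts in each class. Stx1a met this rule in 3 of 6 pairs, all with bipolar cells: against amacrine cells by 61.9 points (the rule called 9.23% of all genes compared in that pair), against rods by 57.2 points (4.32%) and against ganglion cells by 62.7 points (12.7%). The counts are low, and at a minimum of 100 counts in each class no pair of Stx1a with bipolar cells could be compared. The third isoform, with no annotated name and no model, had 44 counts, of which 29 were in amacrine cells, 14 in ganglion cells and 1 in bipolar cells.

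Vamp2 (ENSMUSG00000020894.16, chr11:69088490-69092384, plus strand) encodes synaptobrevin 2, the main vesicle SNARE of the brain. Its level was 2749 CPM in amacrine cells (2735 to 2764), 1416 in ganglion cells (1377 to 1456), 600 in cones (582 to 618), 513 in bipolar cells (505 to 522), 503 in rods (497 to 509) and 87.7 in Müller glia (80.5 to 95.5). Vamp2 was highest in amacrine cells, 1.94-fold above ganglion cells, and the intervals of bipolar cells and rods overlapped. Vamp2-201 held 185288 of 185303 counts, and a second isoform without annotation had 15, so that this abundant gene showed nearly a single isoform in every class.

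Vamp1 (ENSMUSG00000030337.16, chr6:125215551-125245964, plus strand) encodes synaptobrevin 1, a close relative of synaptobrevin 2. It stood at 65.2 CPM in ganglion cells (57.1 to 74.3), 6.39 in rods (5.74 to 7.09), 6.26 in amacrine cells (5.57 to 7.01), 4.76 in bipolar cells (4.00 to 5.62), 2.61 in Müller glia (1.49 to 4.24) and 2.19 in cones (1.25 to 3.56). Ganglion cells were 10.4-fold above amacrine cells and 10.2-fold above rods, and from rods down every pair of neighbours overlapped. Amacrine cells over rods gave a log2 difference of -0.03, which changed sign to 0.23 under TMM scaling (the trimmed mean of M-values).

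The 2 leading Vamp1 isoforms differ at 1 intron of 412 nt (chr6:125219638-125220049). Vamp1-201 has it spliced out and Vamp1-203 retains it. The retained form meets a stop codon within the intron, so the coding sequences part there, with 118 codons in Vamp1-201 and 117 in Vamp1-203. The ends of both are shown because this is the change that separates ganglion cells from rods. Lower-case letters are shared, capitals are the bases after the shared part up to and including the stop codon, and both are from GENCODE M21 on the plus strand. Vamp1-201 is read from chr6:125219611-125219637 joined to chr6:125220050-125220066, and Vamp1-203 from chr6:125219611-125219651.
Vamp1-201: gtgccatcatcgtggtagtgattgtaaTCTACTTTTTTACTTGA
Vamp1-203: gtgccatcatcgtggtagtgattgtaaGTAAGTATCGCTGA

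The spliced form Vamp1-201 held 210 of 229 Vamp1 counts in ganglion cells, a share of 91.7% (87.3 to 94.9%). Its share was 40.1% in amacrine cells (121 of 302, 34.5 to 45.8%), 5.07% in bipolar cells (7 of 138, 2.06 to 10.2%) and 2.82% in rods (10 of 354, 1.36 to 5.13%). The retained form Vamp1-203 ran the other way, from 8.30% in ganglion cells through 54.0% in amacrine cells and 84.1% in bipolar cells to 94.4% in rods (91.4 to 96.5%). Ganglion cells and rods thus used nearly opposite forms, and amacrine cells lay between them with an interval that overlapped neither.

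Vamp1 met the rule for a switch in 3 of 6 pairs, all with ganglion cells: by 51.6 points against amacrine cells (8.19% of genes called in that pair), 86.6 against bipolar cells (12.7%) and 88.9 against rods (13.3%). The amacrine column held ganglion markers at 2.26% of their level in ganglion cells. Vamp1 there, over all its forms, stood at 9.59% of its ganglion level. Vamp1-201 alone had 121 counts in an amacrine total of 48248340 and 210 in a ganglion total of 3509890. The part of ganglion RNA in the amacrine Vamp1-201 counts was not tested. Cones and Müller glia had 16 Vamp1 counts each, with 1 and 0 on Vamp1-201, and were not compared. Vamp1-206, which has another first exon and splices from the same donor to a later acceptor, had 27 counts, 8 of them among the 16 of Müller glia and 12 in bipolar cells. Vamp1-202, with another last exon, had 25 counts, of which 18 were in amacrine cells (5.96%). Tapbpl, Cd27 and Mir8113 overlap the span of Vamp1 on the opposite strand, and reads from these genes cannot be told apart where counting ignores strand.

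**Figure D2:**
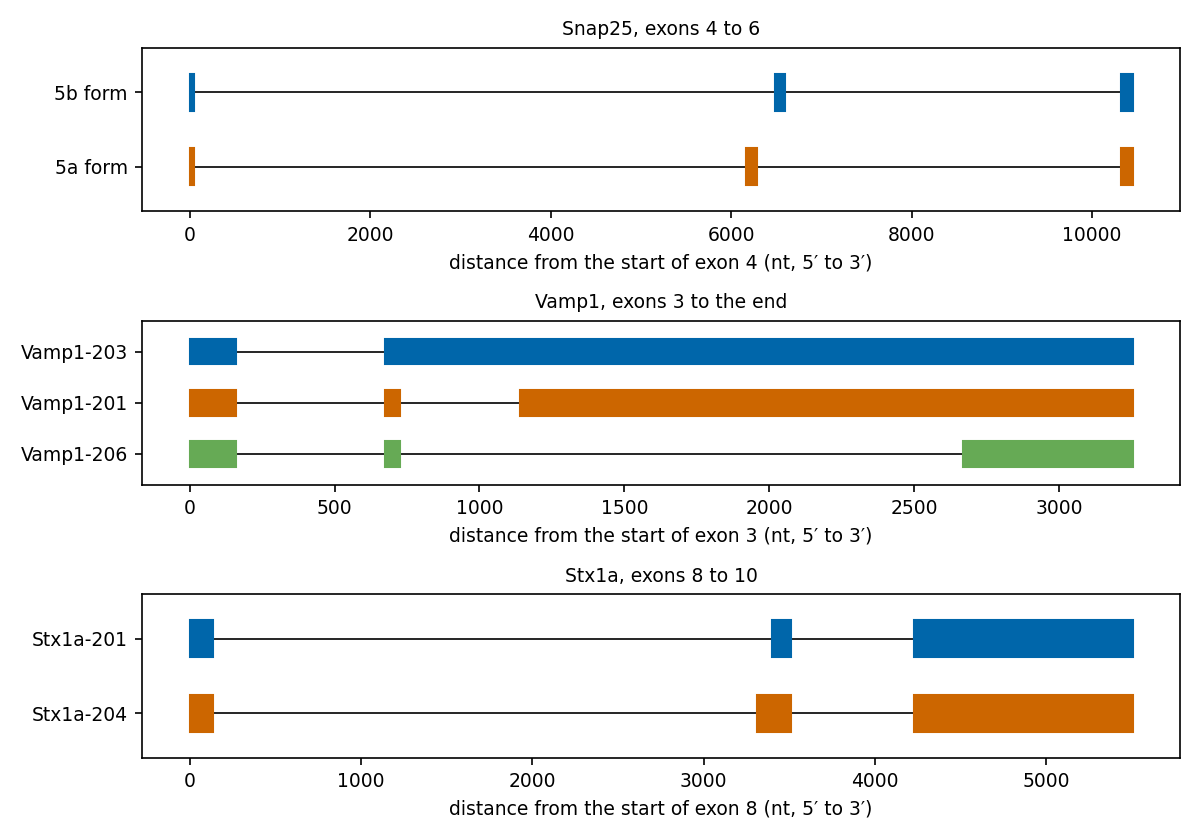
Exons (boxes) and introns (lines) of the compared isoforms of Snap25, Vamp1 and Stx1a, drawn to scale with the distance in nt from the start of the stretch on the x axis. The exchanged exons of Snap25 are 118 nt each, the Vamp1 intron is 412 nt and the added part of Stx1a-204 is 83 nt.

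**Figure D3:**
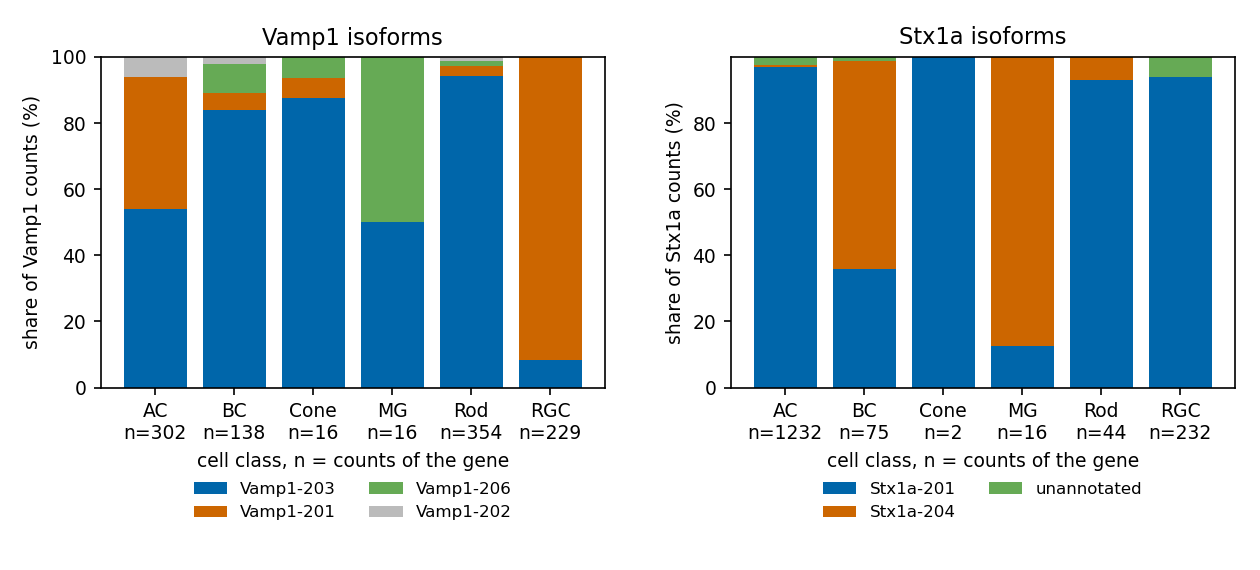
Share of Vamp1 and Stx1a counts held by each isoform in the 6 classes, in percent, as stacked bars with the number of counts of the gene (n) under each. Stx1a-204 leads in bipolar cells with 62.7% and Vamp1-201 in ganglion cells with 91.7%.

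Syt1 (ENSMUSG00000035864.14, chr10:108497650-109010982, minus strand) encodes synaptotagmin 1, the calcium sensor of fast release. It was the least counted of the 7 genes, with 240 counts in all. Its level was 5.70 CPM in ganglion cells (20 counts, 3.48 to 8.80), 2.53 in amacrine cells (122 counts, 2.10 to 3.02), 1.21 in bipolar cells (35 counts, 0.840 to 1.68), 1.09 in cones (8 counts, 0.473 to 2.16) and 0.992 in rods (55 counts, 0.747 to 1.29). Müller glia had 0 counts (0 to 0.601 CPM), where 3 counts would be 0.489 CPM. Bipolar cells, cones and rods were not distinguishable at this depth. The place of ganglion cells rested on isoforms without annotation or model: with annotated isoforms only, with modelled isoforms only or per kb, ganglion cells had 0 Syt1 counts and amacrine cells were highest.

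Syt1 had 8 isoforms, 2 annotated and 6 not, and the annotated ones held 64.2% of its counts. Syt1-201 led in amacrine cells (74 of 122 counts), bipolar cells (24 of 35) and rods (31 of 55). An isoform with another first exon and no annotation had 29 counts, 5 of them among the 8 of cones. Syt1-202, which has 1 exon more, had 22 counts, and an unannotated isoform of 5 exons had 18.

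The 20 Syt1 counts of ganglion cells all fell on 2 isoforms that have neither an annotated name nor a deposited model, with 13 and 7 counts, so their structure was not analysed here. Gm5136, Gm47472 and Gm47477 overlap the span of Syt1, 2 on the same strand and 1 on the opposite, and whether reads of these genes entered the Syt1 counts was not tested. Of the remaining isoforms without annotation, 1 had 12 counts, all in amacrine cells, and 1 had 6 counts, all in rods. The rule for a switch was met by Syt1 in 3 pairs, all with ganglion cells at their 20 counts, by 64.2 points against amacrine cells, 68.6 against bipolar cells and 65.0 against rods. Over any pair of classes, 3 of the 5 genes with 2 or more isoforms switched (Stx1a, Syt1 and Vamp1), against 25% of all genes compared. With 100 counts in each class as the minimum, 1 switched, Vamp1. The lowest total of any isoform in the table was 6 counts, so rarer isoforms are not in view.

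Cplx1 (ENSMUSG00000033615.9, chr5:108518554-108550024, minus strand) encodes complexin 1, the complexin of conventional synapses. Its only isoform stood at 216 CPM in ganglion cells (201 to 232), 87.5 in amacrine cells (84.8 to 90.1), 2.15 in rods (1.78 to 2.57), 1.78 in cones (0.947 to 3.04), 1.14 in bipolar cells (0.783 to 1.60) and 0.489 in Müller glia (3 counts, 0.101 to 1.43). The other 4 classes lay far below ganglion and amacrine cells, and neighbours among them overlapped. Ganglion cells stood 100-fold above rods, and amacrine cells 40.7-fold above rods and 76.9-fold above bipolar cells. The amacrine level of Cplx1 was 40.6% of the ganglion level, and ganglion markers in the amacrine column were at 2.26% of theirs. The part of ganglion RNA in the amacrine Cplx1 counts was not tested.

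Syp (ENSMUSG00000031144.15, chrX:7638471-7653256, plus strand) encodes synaptophysin, an abundant protein of the vesicle membrane. It ran against the order of the other genes: its only isoform stood at 421 CPM in bipolar cells (413 to 428), 397 in cones (383 to 412), 95.4 in rods (92.9 to 98.0), 30.0 in Müller glia (25.8 to 34.7), 10.2 in amacrine cells (9.36 to 11.2) and 6.27 in ganglion cells (22 counts, 3.93 to 9.49). Bipolar cells were 41.1-fold and cones 38.8-fold above amacrine cells, and 4.41-fold and 4.16-fold above rods. The intervals of amacrine and ganglion cells overlapped. With median-of-ratios scaling cones stood above bipolar cells, at 446 and 414. A predicted gene, Gm14703, overlaps Syp on the opposite strand.

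**Figure D4:**
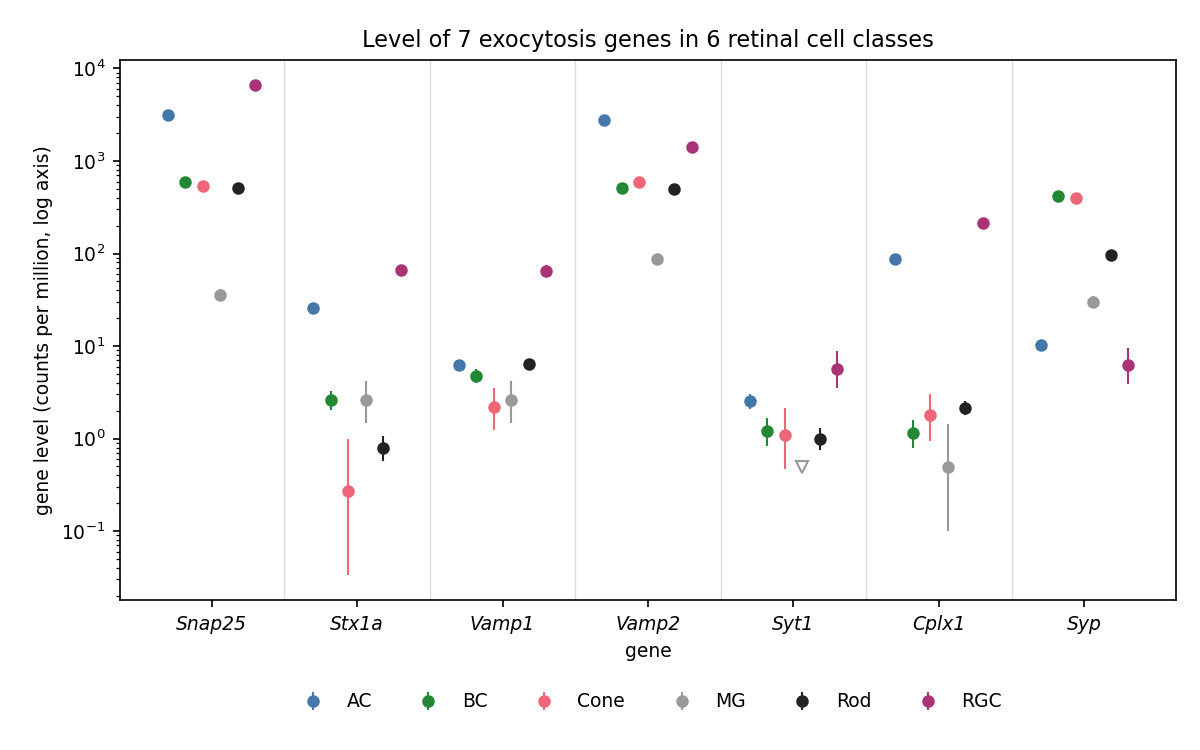
Level of the 7 genes in the 6 classes in CPM on a log axis, with exact 95% intervals. The open triangle marks 0.489 CPM, the level of 3 counts, for Syt1 in Müller glia, which had 0 counts. Snap25, Syt1, Vamp1, Stx1a and Cplx1 are highest in ganglion cells, Vamp2 in amacrine cells and Syp in bipolar cells, except that Syp is highest in cones with median-of-ratios scaling and Syt1 has 0 counts on annotated isoforms in ganglion cells.

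Of the 7 genes, 5 were highest in ganglion cells (13.7% of all genes were), 1 in amacrine cells (20.9%) and 1 in bipolar cells (13.9%). The 5 became 4, without Syt1, with annotated isoforms only, with modelled isoforms only or per kb, and the 1 in bipolar cells, Syp, moved to cones with median-of-ratios scaling. A level at least 4-fold higher in amacrine cells than in rods was found for 4 of 7: Snap25, Vamp2, Stx1a and Cplx1. The background for this was 22.6% of all genes compared. In ganglion cells against rods 5 of 7 passed, Snap25, Syt1, Vamp1, Stx1a and Cplx1, against 13.5% of all genes. Syt1 passed only with its unannotated isoforms counted. The median log2 difference of log2(CPM + 1) was 2.45 for the 7 genes and -0.04 for all genes in amacrine cells over rods, and 3.17 and -0.68 in ganglion cells over rods.

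Against amacrine cells, ganglion cells were 4-fold higher in 1 of 7, Vamp1 (5.16% of all genes). Amacrine cells were 4-fold higher than ganglion cells in 0 of 7 (39.7%). The 39.7% includes genes with 0 ganglion counts, since 20 counts in the pair were enough to be compared. In ganglion cells 7364 genes had a count, against 12198 in the deeper amacrine column. Syp alone of the 7 passed in the direction of ribbon-synapse cells over amacrine cells, in bipolar cells (14.1% of all genes), cones (11.0%) and rods (19.7%). Müller glia, a glial class, were 4-fold higher than amacrine cells in 0 of 7 (16.7%). A level in a pooled column cannot tell fewer cells with a message from less message per cell.

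Levels of different genes were set side by side per length, as counts per kb scaled to a sum of 1000000 in each class, over isoforms with a model. Counts of full-length reads need not grow with isoform length, so this division can itself lower long isoforms. Whether it was needed was not tested. In CPM the order of the genes given below for ganglion cells, amacrine cells and rods was the same. On this scale the level of Snap25 in ganglion cells was 2571, that of Vamp2 530, Cplx1 81.0, Stx1a 24.3, Vamp1 20.2 and Syp 2.18, while Syt1 was at 0 because its ganglion isoforms have no model. In amacrine cells Snap25 was at 1203 and Vamp2 at 1025, followed by Cplx1 at 32.7, Stx1a at 9.70, Syp at 3.55, Vamp1 at 1.81 and Syt1 at 0.593. In rods the order was Snap25 at 203, Vamp2 at 194 and Syp at 34.2, with the other 4 genes below 2. Snap25 and Vamp2 were the most abundant of the set in these 3 classes, and Stx1a lay far below both in each.

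Each gene was also set against its relatives, as a share of the counts of the family. Of the counts of Stx1a and Stx3 together, Stx3 held 99.9% in cones, 99.7% in rods, 98.4% in bipolar cells and 89.2% in Müller glia, but 43.4% in amacrine cells and 0.855% in ganglion cells (2 of 234 counts). Stx1a thus held the larger part in amacrine cells (56.6%, 54.5 to 58.7%, and 60.6% per kb of isoform) and in ganglion cells (99.1%), and the smaller part in the other 4 classes. As levels, Stx3 stood at 246 CPM in cones, 230 in rods, 157 in bipolar cells and 21.5 in Müller glia, against 19.5 in amacrine and 0.570 in ganglion cells. The Stx3 level was 107% of the rod level in cones and 9.37% in Müller glia, beside the 43.4% and 10.1% of rod markers, and the part of rod RNA in it was not tested.

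Among the complexins, Cplx1 held all 757 counts of Cplx1, Cplx3 and Cplx4 in ganglion cells and 60.6% in amacrine cells (49.7% per kb), and less than 1% in each of the other 4 classes. Cplx4, a complexin of ribbon synapses, held 99.5% in rods, 95% in Müller glia, 90.0% in cones and 83.2% in bipolar cells, and 5.04% in amacrine cells. The Cplx4 level was 38.5% of the rod level in cones and 6.03% in Müller glia, where rod markers were at 43.4% and 10.1%, and 15.8% in bipolar cells, where they were at 2.65%. The part of rod RNA in the Cplx4 of cones and Müller glia was not tested. Cplx3 held 34.3% in amacrine cells, 16.3% in bipolar cells and 9.59% in cones. Cplx4 reached 1027 CPM in rods and 62.0 in Müller glia, and it had 0 counts in ganglion cells (0 to 1.05 CPM).

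Syp held 94.0% of the counts of Syp, Synpr and Sypl in cones, 78.7% in bipolar cells and 57.8% in rods. In amacrine cells it held 0.971%, in ganglion cells 2.83% and in Müller glia 4.45%. Synpr, which encodes the related vesicle protein synaptoporin, took most of the counts in those 3 classes, with 94.9%, 76.6% and 83.2%. This share is of a sum that includes Syp, so a low Syp count by itself raises it. As levels, Synpr stood at 1000 CPM in amacrine cells, 561 in Müller glia and 170 in ganglion cells. In bipolar cells it stood at 93.9 CPM, in rods at 23.2 and in cones at 9.58.

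Of the SNAP proteins, Snap25 held 96.6% of the counts of Snap25, Snap23, Snap29 and Snap47 in ganglion cells, 95.6% in amacrine cells, 85.7% in rods, 79.3% in cones and 68.2% in bipolar cells. In Müller glia its share was 16.6%, and Snap47 led there with 64.8%. Snap23, the SNAP protein of many non-neuronal cells, was highest in Müller glia at 28.4 CPM. Vamp1 held at most 4.41% of the Vamp1 and Vamp2 counts, in ganglion cells, and 0.227% in amacrine cells. Per kb its largest share was in Müller glia, at 4.38% with 16 Vamp1 counts, against 3.67% in ganglion cells.

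**Figure D5:**
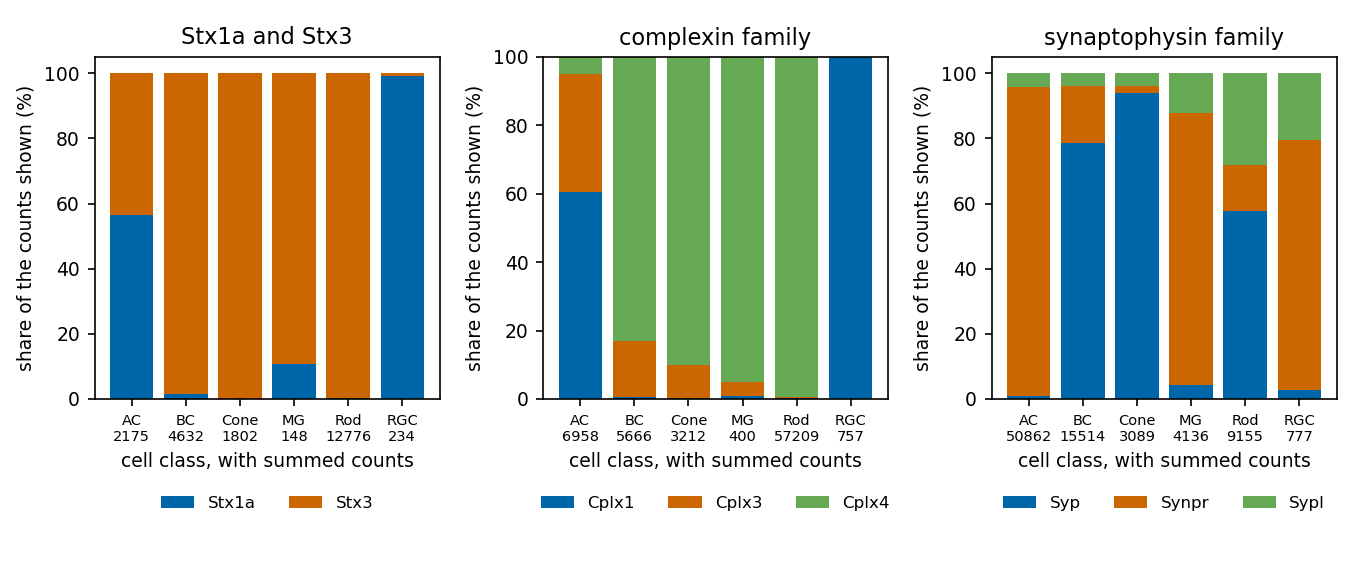
Share of the counts of each set of related genes held by each gene in the 6 classes, in percent, as stacked bars that start at 0. Stx3, Cplx4 and Syp lead in rods, cones and bipolar cells, whereas Stx1a, Cplx1 and Synpr lead in amacrine and ganglion cells.

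A list of 60 other genes of vesicle release was read beside the set, of which 57 had isoforms in the table. Syt2, Vamp7 and Slc18a2 had none. In amacrine cells over rods, 24 of 53 compared genes passed 4-fold (22.6% of all genes did), among them Cplx3, Rab3a and Sncb, and 6 passed in the other direction (19.7%): Stx3, Vamp8, Unc13b, Cplx4, Sv2b and Slc17a7, the last of which encodes the glutamate transporter of photoreceptor and bipolar vesicles. In ganglion cells over rods 15 of 46 passed (13.5% of all genes did), and as many in the other direction, where 44.0% of all genes did. In that other direction, both the 15 and the 44.0% include genes with 0 ganglion counts. The median log2 difference of the list was 0.61 in amacrine cells over rods and 0.36 in ganglion cells over rods, below the 2.45 and 3.17 of the 7 genes.

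Per kb, the listed gene with the highest level was Sncb, which encodes beta-synuclein, in amacrine cells (3954), bipolar cells (1883) and cones (865). It was Cplx4 in rods (475) and Vamp8, a SNARE of endosomes and secretory granules, in Müller glia (358). Without the division by length Synpr led in Müller glia, at 561 CPM against 360 for Vamp8. In ganglion cells Rab3a, a small GTPase of the vesicle, was at 1975 and Sncb at 1961, nearly level. Cplx3 stood at 49.5 CPM in amacrine cells, 42.2 in cones and 31.7 in bipolar cells, and at 2.83 or less in the rest, with 0 counts in ganglion cells.

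The gene most like each of the 7 across the 6 classes was found by Pearson's r of log2(CPM + 1), among 3207 genes that reached 50 CPM in a class. With 6 points that share their column totals, a high r is easily reached in so many genes and is given as a description. Snap25 was most like Sfxn3 (r = 0.998), Syt1 like Timm10 (0.995), Vamp1 like Diablo (0.993) and Vamp2 like Vbp1 (0.996). Stx1a was most like Sae1 (0.998), Cplx1 like Apex1 (0.998) and Syp like Rtn4 (0.981). The likeness is not one of size, since Sfxn3 ran from 2.28 CPM in Müller glia to 51.0 in ganglion cells, far below Snap25 in each class.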

How the data were processed

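The authors deposited whole-number counts per isoform in 6 columns of cell classes and an annotation of transcript models, whose contents name FLAIR, a tool for isoform models from long reads. The genome build is mm10 (GRCm38), per the submitters' processing notes. Whether reads were collapsed to molecules, how cells were typed, how doublets were treated and which library entered which column are not given in the sources used here. All 53 splice junctions of the genes' models were compared with GENCODE M21, and 51 were found there.

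Counts were used as deposited and summed per gene. The deposited counts name no library, so the columns are pooled, no test could be made, and 0 columns were left unused. Levels are CPM with exact Poisson intervals, and shares have Clopper-Pearson intervals, at 95%. Reads may share a molecule, so both cover counting error only. Models exist for 36426 isoforms, and 7899 isoforms, 5 of them of the described genes, have none. The genes named are the 8 listed ones, the pathway list, their relatives and the gene most like each by r. An isoform is described at 1% of its gene's counts or more, or at 5% or more in a class with 100 counts of the gene. 1 gene of the pathway list is not reported here. The 4-fold rule needed 20 counts in the pair. The genes and lists were chosen with earlier results of these data known. The relatives, the rule for exchanged exons and the rule on share differences at 1000 counts were added after the values were seen.

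Alternatives were TMM scaling (edgeR 4.0.16), the median of ratios, length, other minimums and folds, isoforms with the same introns summed, annotated isoforms only, and another reference isoform. The switch rule was tried on simulated counts of amacrine cells and rods, for genes with at least 100 counts in each. The exchanged isoforms there differed widely in share. Both kinds of interval were also simulated. Genes with fewer counts and the other rules were not. Python 3.11.15, pandas 2.3.3, scipy 1.17.1 and R 4.3.3 were used.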

Additional observations from a re-analysis of the deposited data

How the results depend on the processing

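Of 173 values recomputed under an alternative, 145 stayed within counting error or within 1.5 times of a count, 28 moved and 0 reversed a call. Part of the 145 could not change. Snap25, Vamp1, Syp and Cplx1 have only annotated and modelled isoforms, so the filters on isoforms left their values as they were. A reversal could be called only for levels over rods that differed at least 4-fold. For 3 more, Syt1 in ganglion cells over rods with modelled isoforms only, with annotated isoforms only and per kb, no fold exists because ganglion cells fall to 0 counts while rods do not, so the higher level in ganglion cells ends there. The number of genes with an isoform switch was 3, and 1 (Vamp1) with 100 counts in each class, since Stx1a and Syt1 then had too few counts in the classes concerned. It was 2 (Stx1a and Vamp1) with modelled isoforms of at least 2 exons, where the ganglion isoforms of Syt1 drop out. With the isoform of most exons as the reference, skipped exons numbered 5 in place of 3 and alternative 3′ splice sites 2 in place of 1. The Snap25 5a shares could not change, because the gene has only its 2 annotated isoforms. Of 81 log2 levels over rods, 15 moved beyond counting error, and of 36 family shares per kb, 10 did. Scaling by TMM shifted all log2 differences over rods by 0.25 in amacrine cells and -0.22 in ganglion cells, and the median of ratios shifted them by -0.23 and -0.04; the sign of Vamp1 in amacrine cells over rods turned with TMM. No paired analysis was possible because each class column is pooled over libraries and has no replicate number, and leaving out a library was not run for the same reason. Depth limits Syt1 in all classes, Stx1a in bipolar cells, cones, Müller glia and rods, and Vamp1 in cones and Müller glia.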
